A study of Rattus norvegicus with 21 samples.

Results

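The genes described here are the rat liver glutathione transferases and a panel of antioxidant genes controlled by NRF2. They were taken by name from both deposited tables: protein-coding rows of the cytosolic, kappa and microsomal transferase families, and 12 genes of glutathione synthesis and the NRF2 response. The rule found 36 of the 32623 gene rows. Of these, 25 were transferases (6 alpha, 7 mu, 1 pi, 4 theta, 2 omega, 1 zeta, 1 kappa and 3 microsomal) and 11 were panel genes. Srxn1 had no row, and 34 members passed the filter on low counts in each table. Gstt4 had no count in any of the 21 libraries and Gstm6l had counts in 1, so neither was tested.

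The study followed livers of early weaned rats, each group with 3 libraries. Wistar rats were sampled on day 23 and day 63 of age, as controls and as early weaned animals. Sprague-Dawley rats, labelled SD, were sampled on day 211 as controls, as early weaned rats, and as early weaned rats that were given 1.5% leucine in the drinking water. The labels give no weaning day, diet or sex, and do not say whether the 3 libraries of a group came from separate animals, so every p-value below measures the spread between these libraries only. Strain, age and table change together between day 63 and day 211, and values were not tested across them.

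Glutathione transferases join the tripeptide glutathione to electrophiles, which makes reactive compounds soluble and ready for export. The alpha and mu classes are abundant in hepatocytes, and the microsomal members sit in membranes. NRF2, encoded by Nfe2l2, is held for degradation by its sensor Keap1; electrophiles release it, and with a small MAF partner it binds antioxidant response elements. Its known targets include several transferases, the glutamate-cysteine ligase subunits Gclc and Gclm that start glutathione synthesis, the quinone reductase Nqo1 and the heme-degrading enzyme Hmox1.

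The start regions of 4 members whose values the results turn on are printed because 3 of them carry the core of the antioxidant response element, TGACNNNGC on either strand. Each window runs from 250 bases before to 50 bases after a RefSeq transcription start in the rat build GRCr8, 5′ to 3′ on the gene's strand, with a match in capitals. Gsta2 lies at chr8:88077043-88077342 on the minus strand, Gsta5 at chr8:87988104-87988403 on the plus strand, Gclm at chr2:213031885-213032184 on the plus strand and the second of the Ephx1 windows at chr13:95263068-95263367 on the minus strand.
Gsta2: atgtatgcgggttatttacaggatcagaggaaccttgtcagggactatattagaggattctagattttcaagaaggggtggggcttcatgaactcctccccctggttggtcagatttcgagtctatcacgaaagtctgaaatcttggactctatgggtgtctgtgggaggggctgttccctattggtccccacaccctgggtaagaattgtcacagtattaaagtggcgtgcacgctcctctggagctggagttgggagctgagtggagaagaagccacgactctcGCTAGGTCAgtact
Gsta5: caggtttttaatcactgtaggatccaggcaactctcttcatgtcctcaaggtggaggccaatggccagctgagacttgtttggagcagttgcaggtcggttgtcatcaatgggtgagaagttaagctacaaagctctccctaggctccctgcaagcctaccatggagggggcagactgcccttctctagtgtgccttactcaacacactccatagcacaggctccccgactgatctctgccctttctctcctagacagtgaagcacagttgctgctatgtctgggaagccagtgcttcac
Gclm: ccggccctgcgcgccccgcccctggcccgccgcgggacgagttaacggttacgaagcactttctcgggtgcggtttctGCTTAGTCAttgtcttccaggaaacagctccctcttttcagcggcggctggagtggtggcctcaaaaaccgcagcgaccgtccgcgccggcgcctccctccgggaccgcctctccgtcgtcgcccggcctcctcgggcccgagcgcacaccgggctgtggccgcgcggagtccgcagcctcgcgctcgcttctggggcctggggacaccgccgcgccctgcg
Ephx1: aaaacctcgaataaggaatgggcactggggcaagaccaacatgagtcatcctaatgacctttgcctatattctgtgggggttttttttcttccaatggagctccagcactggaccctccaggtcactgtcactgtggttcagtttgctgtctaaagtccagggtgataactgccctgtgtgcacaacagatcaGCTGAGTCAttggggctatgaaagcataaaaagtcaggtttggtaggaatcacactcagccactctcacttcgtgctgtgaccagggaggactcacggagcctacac
The Gsta2 match began at base 37 of the transcribed part, the Gclm match 172 bases before the start and the Ephx1 match 57 bases before it, all read on the opposite strand. The Gsta5 window held no match, and neither did the other Ephx1 window, at chr13:95275803-95276102, which is not printed. RefSeq windows matched 29 of the 36 members, 4 of them with 2 windows. The core was found in 12 of these 33 windows (36.4%), against 4038 of all 33469 windows (12.1%). The other genes with a match were Gpx2, Gsta1, Gsta3, Gstm5, Gstm7, Gstp1, Gstz1, Nfe2l2 and Txnrd1. The D-box of clock output factors, TTANGTAA, was found in 1 member window (3.03%), that of Gsta3, against 749 of all windows (2.24%). These are matches of letters in one window per start, not sites shown to be bound.

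The deposited count totals ran from 52054644 to 75118153 units per library, where about 4 units stand for 1 fragment, and 10250 to 11082 genes reached an FPKM (fragments scaled to transcript length and library size) of 1. The 8 hepatocyte markers, albumin among them, summed to 56459.9 to 120833 FPKM per library. Several libraries stood apart. The Y-linked transcript Eif2s3y was at most 0.01 FPKM in 3 Wistar libraries, early weaned replicates 2 and 3 at day 23 and control replicate 2 at day 63, and at 9.08 to 17.8 FPKM in the other 18. Control replicate 2 at day 63 also read 0.34 FPKM for the male-typical Cyp2c11, against 542 to 931 in the other day 63 libraries. Control replicate 3 at day 23 correlated with its own group at only 0.905 and 0.908 (Pearson's r of log2(FPKM + 1) across genes), while the other 2 libraries of the group correlated at 0.978. With the libraries of the other Wistar groups this replicate correlated at 0.911 to 0.943, highest with control replicate 2 of day 63. It was thus nearer to the day 63 libraries than to its own group. At day 211 the early weaned replicate 2 correlated with its group at 0.958 and 0.965, against 0.978 for replicates 1 and 3. Counts of called members, and the values they move most, are given with and without them.

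Some members share sequence or coordinates with others, and their reads could be split between rows. Gsta5 (ENSRNOG00000000201, chromosome 8, 85553734 to 85565179, plus strand) and Gsta2 (ENSRNOG00000029861, chromosome 8, 85640055 to 85645718, minus strand) are close relatives, and the ratio of their FPKM stayed between 1.16 and 1.66 in all 21 libraries. Gstm7 spans the rows of Gstm3l and Gstm6 on the same strand, Gsto1 overlaps Gsto2 on the same strand, and Gsta1 and Gsta3 overlap on opposite strands. Values for these pairs are the deposited rows, with that limit. The rat build behind these gene coordinates is not given in the sources used here.

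In Wistar liver the transferases together were more abundant at day 63 than at day 23. Their summed level was 3440.2 FPKM on average in day 23 controls and 6323 in day 63 controls, 0.567% and 1.07% of all FPKM. The early weaned groups averaged 3760.1 FPKM at day 23 and 6548 at day 63. The Sprague-Dawley groups lay at 6814 FPKM in controls, 6626 in early weaned and 6931 in leucine-supplemented rats. These sums are described without a test.

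The makeup of that pool differed between groups more than its size did at day 211. Alpha class rows held 14.8% of the transferase FPKM in day 23 controls and 31.8% in day 63 controls. At day 211 the alpha share was 29.2, 32.3 and 33.7% in the 3 control libraries, 20.0, 22.6 and 19.5% in the early weaned libraries and 34.5, 34.4 and 34.6% with leucine. All 3 early weaned libraries lay below every other library of that age. The mu share ran the other way, with 25.9, 22.8 and 22.9% in controls, 40.5, 31.4 and 46.7% in early weaned and 23.6, 21.2 and 23.7% with leucine. Early weaned replicate 2 had the lowest mu share of its group and still lay above the controls. Microsomal rows held 34.5%, 29.1% and 33.1% on average in those 3 groups, and the theta, zeta, omega, kappa and pi classes made up the rest. Shares of a total are tied, so a lower alpha share raises the others, and they were not tested. The summed mu level averaged 1620, 2646 and 1584 FPKM. On log2(FPKM + 1) the median of all genes was also higher by 0.17 in early weaned rats than in controls. Gstm1, the most abundant mu row, was not called there (edgeR, log2 change 0.47, adjusted p = 0.251).

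**Figure D1:**
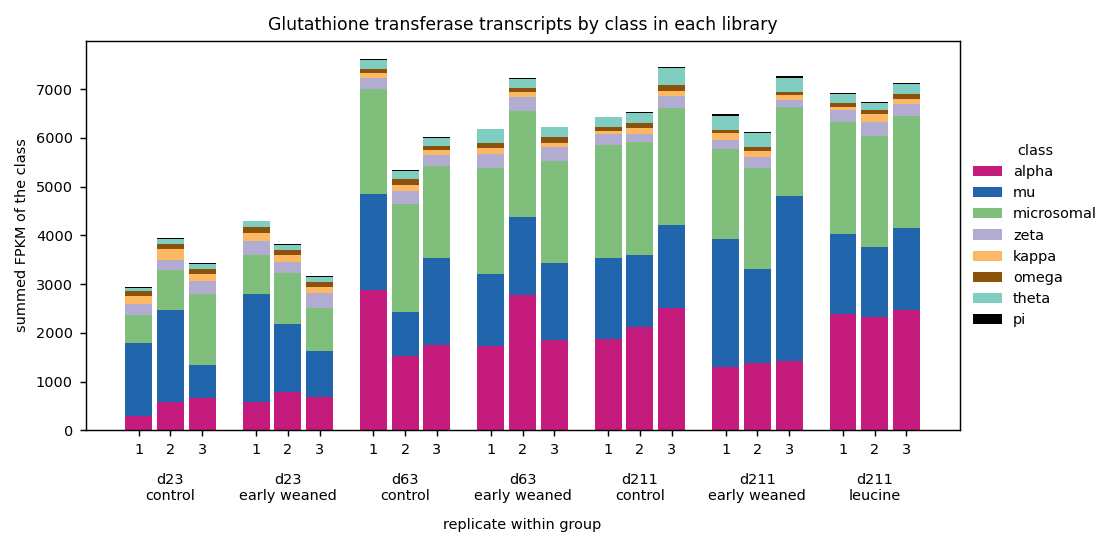
Summed FPKM of the glutathione transferase rows in each of the 21 libraries, coloured by class. The bars of the early weaned libraries at day 211 have a smaller alpha part and a larger mu part than those of the other Sprague-Dawley groups, at a similar height. The class sums were not tested.

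Ranked by level over all 21 libraries, 11 members averaged at least 100 FPKM and 10 of these were transferases. The membrane enzyme Mgst1 and the mu class Gstm1 led the list. At the other end, 7 members were below 1 FPKM in at least 1 library: Gstm3l, Gstm5, Gstm6, Gstm6l, Gsto2, Gstt4 and Gpx2. Gsto2 lay between 0.166 and 0.64 FPKM, Gstm5 between 0.34 and 2.84, and Gstm6 between 0.12 and 6.41.

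Between day 23 and day 63 the alpha class pair Gsta2 and Gsta5, Ephx1, Mgst1, Mgst2, Gstt1, Gstt2 and both glutamate-cysteine ligase subunits rose in controls and in early weaned rats, while Hmox1 and Gss fell in both. The controls had 11 members higher and 3 lower at day 63 (edgeR quasi-likelihood test, adjusted p below 0.05 over all genes). Across all genes of that comparison 17.6% were called, 7.97% higher and 9.61% lower. In early weaned rats 11 members were higher and 4 lower, where 27.0% of all genes were called, 13.5% higher and 13.5% lower. On log2(FPKM + 1) with limma, 1644 of the 4401 genes called in early weaned rats were higher, against 2085 of 4161 by edgeR. The age comparisons use separate libraries: 9 members were higher in both, 81.8% of each list, and 2 were lower in both, 66.7% of the control list and 50% of the early weaned list. The same overlap was not counted over all called genes, so these shares cannot be read as particular to the members. The median log2 change of the 34 tested members was 0.23 in controls and 0.26 in early weaned rats, against −0.04 and −0.02 over all genes.

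Gsta2, which conjugates bulky electrophiles and lipid peroxidation products, read 17.5, 88.8 and 106 FPKM in the 3 control libraries at day 23 and 1016, 340.0 and 573 at day 63 (log2 change 3.20, SE 0.63, adjusted p = 0.0109). Early weaned libraries read 111, 178 and 118 FPKM at day 23 and 532, 1062 and 623 at day 63 (log2 change 2.57, SE 0.61, adjusted p = 0.0139). No day 23 library reached the lowest day 63 library. Gsta5 followed the same course, from 25.2, 124 and 124 to 1269, 452 and 740.5 FPKM in controls (log2 change 3.20, SE 0.59, adjusted p = 0.00875). Its early weaned values were 153, 251 and 167 and then 714, 1320.4 and 829 FPKM (log2 change 2.44, SE 0.57, adjusted p = 0.0129). The lowest day 63 value of each gene belonged to control replicate 2, the library without Y-linked transcripts.

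Gsta1, another major hepatic alpha transferase, went from 169, 233 and 274 to 478, 579 and 341 FPKM in controls and rose (log2 change 1.06, SE 0.23, adjusted p = 0.0147). In the early weaned groups it was at 217, 205 and 269.8 and then 360.1, 288 and 309 FPKM, which did not pass (log2 change 0.59, adjusted p = 0.073). Gsta3 was the exception in its class. Its controls read 25.3, 41.8 and 51.9 FPKM at day 23 and 13.8, 42.9 and 6.77 at day 63 (log2 change −0.89, adjusted p = 0.274), where control replicate 2 alone stayed at the day 23 level. In early weaned rats it fell from 40.8, 74.2 and 63.8 to 5.56, 3.97 and 6.7 FPKM (log2 change −3.34, SE 0.60, adjusted p = 0.00504). Gsta4, which acts on the lipid aldehyde 4-hydroxynonenal, moved less: 58.1, 88.1 and 103 to 94.6, 90.7 and 81.7 FPKM in controls (log2 change 0.11, adjusted p = 0.721). Early weaned rats went from 63.7, 77.8 and 64 to 106, 102 and 82.9 FPKM (log2 change 0.62, SE 0.20, adjusted p = 0.042), a call lost in 12 of 16 alternatives.

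**Figure D2:**
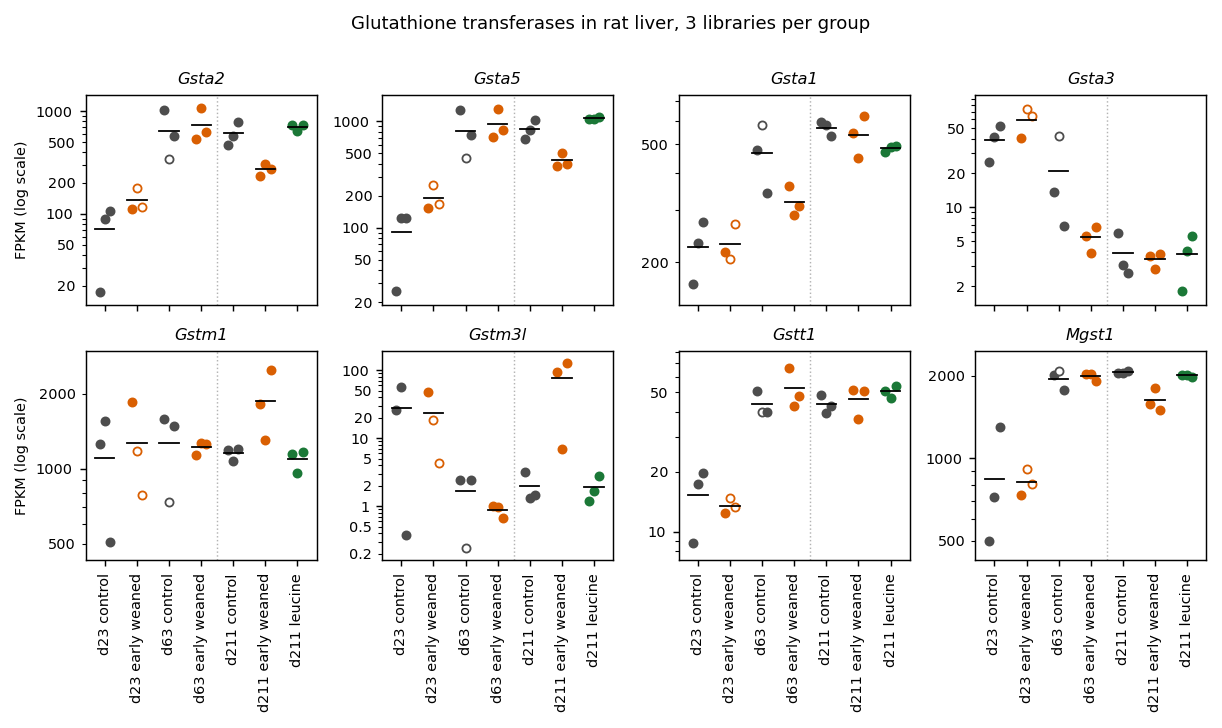
FPKM of selected transferases in each of the 21 libraries on log axes, by group. Points are libraries, open points are the 3 libraries without Y-linked transcripts and black bars are group means. Gsta2 and Gsta5 are lowest at day 23, and at day 211 lower in early weaned libraries than in controls or with leucine.

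Mgst1, the abundant microsomal transferase that also reduces lipid peroxides, rose from 501, 724 and 1304 to 2013, 2076 and 1768 FPKM in controls (log2 change 1.22, SE 0.28, adjusted p = 0.0195) and from 734, 915 and 806 to 2025, 2027 and 1919.9 in early weaned rats (log2 change 1.40, SE 0.28, adjusted p = 0.00774). Control replicate 3 at day 23 was nearest to the older libraries. Mgst2 rose in controls from 25.1, 40.0 and 43 to 58, 64.5 and 53.3 FPKM (log2 change 0.71, SE 0.19, adjusted p = 0.029). Its early weaned values were 41.8, 45.5 and 37.5 and then 66.5, 58.6 and 61.6 FPKM (log2 change 0.70, SE 0.19, adjusted p = 0.0223). The theta enzyme Gstt1, which acts on small halogenated compounds, went from 8.76, 17.4 and 19.8 to 50.8, 40.1 and 39.7 FPKM in controls (log2 change 1.52, SE 0.27, adjusted p = 0.00827) and from 12.5, 14.8 and 13.3 to 66.5, 42.8 and 48.2 in early weaned rats (log2 change 2.07, SE 0.28, adjusted p = 0.00165). Gstt2 read 31.4, 28.1 and 49.9 and then 89.9, 85.6 and 92.4 FPKM in controls (log2 change 1.30, SE 0.24, adjusted p = 0.00912). The early weaned Gstt2 values were 44.6, 27.3 and 35.1 and then 70.2, 91.9 and 92.6 FPKM (log2 change 1.38, SE 0.24, adjusted p = 0.00458). For each of these genes every day 63 library lay above every day 23 library of its weaning group.

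The mu class did not move as one. Gstm1, its most abundant row, varied widely at day 23, with 1250.3, 1552 and 509 FPKM in controls and 1846, 1175 and 786 in early weaned libraries. At day 63 it read 1577, 733 and 1478 FPKM in controls and 1131, 1270.3 and 1254 in early weaned libraries, and its log2 changes with age were 0.20 in controls and 0.06 in early weaned rats (adjusted p = 0.763 and 0.928). Control replicate 3 at day 23 and control replicate 2 at day 63 gave the lowest value of their group. Gstm4 rose in controls from 14.3, 13.9 and 14.2 to 22.9, 19.6 and 21.6 FPKM (log2 change 0.60, SE 0.17, adjusted p = 0.0352). Gstm4 read 17.6, 11.6 and 12.7 and then 20.2, 15 and 17.2 FPKM in early weaned rats (log2 change 0.45, adjusted p = 0.0714). Gstm3l fell in early weaned rats from 47.9, 18.6 and 4.31 to 1.00, 0.97 and 0.66 FPKM (log2 change −4.61, SE 1.43, adjusted p = 0.036), a call lost in 9 of 16 alternatives. In controls it went from 25.9, 56.8 and 0.38 to 2.41, 0.24 and 2.4 FPKM (log2 change −4.01, adjusted p = 0.0648), with control replicate 3 at day 23 already among the low values.

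Among the panel genes, Ephx1 encodes the microsomal epoxide hydrolase, which opens reactive epoxides. It read 69.2, 110.0 and 104 FPKM in day 23 controls and 669, 485 and 609 in day 63 controls (log2 change 2.65, SE 0.22, adjusted p = 0.000277). Early weaned libraries held 126, 137 and 101 and then 389, 411 and 332 FPKM (log2 change 1.75, SE 0.21, adjusted p = 0.00105). Both calls held under all 16 alternatives. The catalytic subunit Gclc rose from 16.9, 13.4 and 30.1 to 41.5, 43.4 and 49.99 FPKM in controls (log2 change 1.16, SE 0.33, adjusted p = 0.036) and from 17.7, 11.2 and 25.7 to 46.2, 65.2 and 52.9 in early weaned rats (log2 change 1.72, SE 0.33, adjusted p = 0.00661). Its modifier subunit Gclm went from 16.1, 12 and 15.6 to 30.8, 21 and 45.1 FPKM in controls (log2 change 1.15, SE 0.28, adjusted p = 0.0226). In early weaned rats Gclm went from 19.1, 14.1 and 23.8 to 48.6, 61.1 and 68.8 FPKM (log2 change 1.78, SE 0.28, adjusted p = 0.00313), and no library of day 23 reached the day 63 range there.

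Gss, which adds glycine in the second step of glutathione synthesis, fell while the first step's subunits rose. It read 40.7, 35 and 34.6 and then 21.7, 25.1 and 26.5 FPKM in controls (log2 change −0.59, SE 0.15, adjusted p = 0.0243), and 35.4, 36.9 and 31.1 and then 18.8, 22.7 and 19.1 in early weaned rats (log2 change −0.65, SE 0.15, adjusted p = 0.011). Hmox1 fell from 70.4, 51.4 and 34.1 to 26.3, 21.2 and 19.5 FPKM in controls (log2 change −1.21, SE 0.26, adjusted p = 0.0146) and from 46.9, 41.7 and 33.6 to 13.9, 17.2 and 17.2 in early weaned rats (log2 change −1.22, SE 0.26, adjusted p = 0.00924). Nfe2l2 itself rose in early weaned rats, from 14.1, 12.5 and 17.4 to 39.2, 43.5 and 20.9 FPKM (log2 change 1.36, SE 0.27, adjusted p = 0.00724). Its control values were 18.1, 15.4 and 24.2 and then 24.4, 33.6 and 30.9 FPKM (log2 change 0.62, adjusted p = 0.123), which did not pass although the ages did not overlap.

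Gpx2, a glutathione peroxidase best known from the gut, was scarce. Its counts were 40, 8 and 170 in day 23 controls and 0 in all 3 day 63 controls, a fall by the test (adjusted p = 0.00846). Replicate 3, which stood apart, gave most of these counts, and replicate 2 lay under the floor of 12 count units (3 fragments), so no fold is given. Without replicate 3 the adjusted p was 0.0017, and without the libraries that lack Y-linked transcripts 0.0607. In early weaned libraries the counts were 26, 33 and 33 at day 23 and 38, 16 and 32 at day 63, with overlap. At these counts the size of any difference is poorly known.

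The remaining panel genes did not pass in either age comparison. The sensor Keap1 read 12.5, 11.4 and 12.4 FPKM in day 23 controls and 13.2, 15.5 and 13.2 at day 63 (log2 change 0.21, adjusted p = 0.32). Early weaned Keap1 values were 13.2, 9.65 and 12.8 and then 12.5, 10.5 and 11.3 FPKM. Nqo1 scattered within groups, with 12.4, 7.06 and 15.1 FPKM at day 23 and 20.5, 23.5 and 12.4 at day 63 in controls, and 28.9, 5.54 and 12.1 and then 17.6, 4.04 and 10.9 in early weaned rats. Glutathione reductase, Gsr, which recycles oxidized glutathione, lay at 33, 21.1 and 23.8 FPKM at day 23 and 44.9, 36.2 and 35.3 at day 63 in controls, and 51.6, 25.5 and 38.9 and then 32.9, 34.3 and 38.3 in early weaned rats. Thioredoxin reductase, Txnrd1, lay at 39.1, 27.2 and 29.3 FPKM at day 23 and 33.3, 30.4 and 36.6 at day 63 in controls, and 36.8, 23.5 and 38.3 and then 29.1, 31.9 and 29.6 in early weaned rats. Within each of these genes the ages overlapped in at least 1 of the weaning groups.

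Further transferases did not pass with age. Gstk1, a mitochondrial and peroxisomal enzyme, read 147, 224 and 149 and then 106, 125 and 97.3 FPKM in controls (log2 change −0.65, adjusted p = 0.0523) and 174, 131 and 119 and then 123, 91.6 and 101 in early weaned rats (log2 change −0.31, adjusted p = 0.283). Gstz1, an enzyme of tyrosine breakdown, held 240.4, 221 and 271 FPKM at day 23 and 226, 283 and 225 at day 63 in controls, and 278, 233 and 304 and then 289.6, 282 and 283 in early weaned rats. Gsto1 held 105, 101 and 93.5 FPKM at day 23 and 78.4, 105 and 83.2 at day 63 in controls, and 116, 113 and 109 and then 97.2, 99.8 and 113 in early weaned rats. For Gstz1 and Gsto1 the ages overlapped in both groups. Gstp1, the pi class enzyme that is low in normal adult hepatocytes, held 16.2, 17.4 and 25.3 FPKM at day 23 and 13.5, 15.9 and 17.2 at day 63 in controls, and 13.8, 14 and 15 and then 16.2, 15.3 and 12.4 in early weaned rats. Mgst3 and Gstm7 in early weaned rats had log2 changes of 1.05 and 0.75 without a call (adjusted p = 0.0655 and 0.111), with every day 63 library above every day 23 library.

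**Figure D3:**
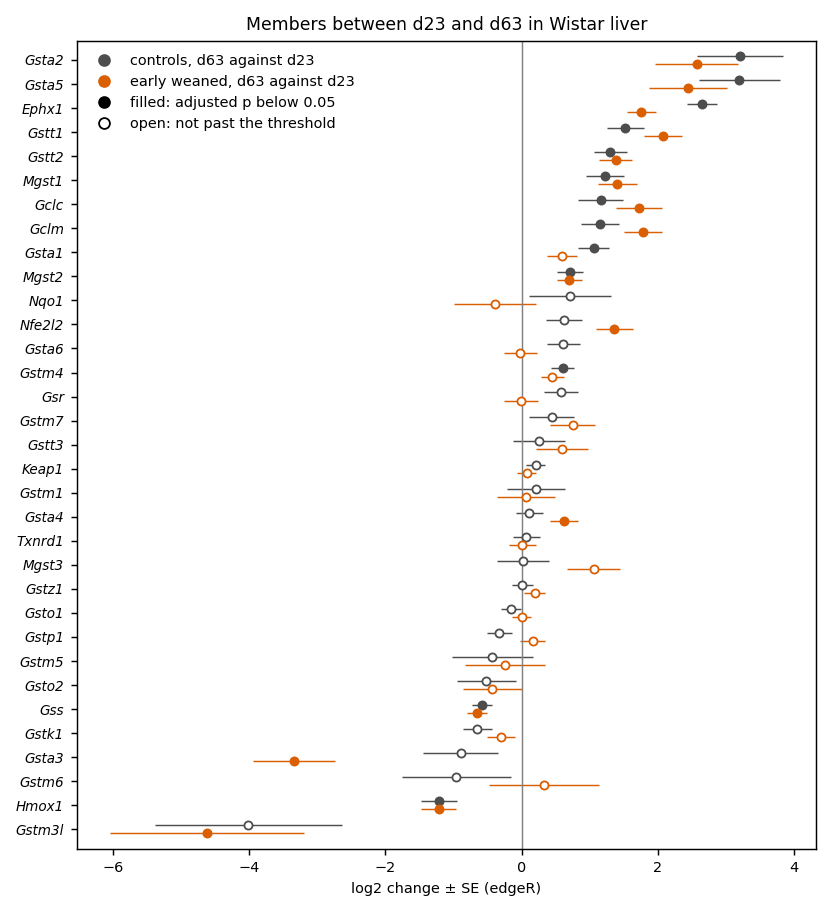
Log2 change from day 23 to day 63 (horizontal axis, edgeR, bars of 1 SE) of 33 tested members, one per line, in controls (grey) and early weaned rats (orange), with filled points past an adjusted p of 0.05 and Gpx2 left out. Gsta2, Gsta5 and Ephx1 are at the top with changes of 1.75 or more in both groups, and Gstm3l is at the bottom.

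The age calls depended on single libraries and on the libraries that stood apart. Without the 3 libraries that lack Y-linked transcripts, 6 members were called in controls (Ephx1, Gclm, Gsta2, Gsta5, Gstt1 and Gstt2) and 3 in early weaned rats (Ephx1, Gclm and Gsta3), where only 1 early weaned library was left at day 23. Over all genes 3.81% and 3.38% were called in that setting. With control replicate 3 of day 23 also left out, 18 and 12 members were called, at 35.0% and 25.9% of all genes. Single libraries also ended calls. In controls the calls of Gclc, Gss, Mgst2 and Gstm4 were each lost in 7 of 16 alternatives, 5 of them without replicate 1 or 2 of day 23 or any 1 replicate of day 63. Mgst1 was lost without replicates 1 or 2 of either age, Gsta1 without replicates 1 or 2 of day 23 or 1 of day 63, Gclm without replicates 1 or 2 of day 23 or 1 or 3 of day 63, and Hmox1 without replicate 1 of day 23 or 3 of day 63. In early weaned rats Mgst2 was lost without replicates 1 or 3 of day 23 or any 1 replicate of day 63. Gsta2 was lost there without replicate 1 of day 23 or 2 of day 63, and Gsta5 without replicate 1 of day 23. Gsta4 was lost there in 12 of 16 alternatives, among them each of the 6 libraries left out, and Gstm3l in 9 of 16, 5 of them with 1 library left out.

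No member was called between the weaning groups at day 23 or at day 63. At day 23 edgeR called 0 of the 34 tested members, 1 had an unadjusted p under 0.05 and DESeq2 called 0. Over all genes 0.0130% were called, and 6.20% had an unadjusted p under 0.05. At day 63 edgeR called 0 members, 5 had an unadjusted p under 0.05 and DESeq2 called 1, Gpx2. Over all genes 0% were called and 6.05% had an unadjusted p under 0.05. The test of whether the weaning difference changed from day 23 to day 63 called 0 members by edgeR and 1, Gpx2, by DESeq2. It left 3 members under an unadjusted p of 0.05, and over all genes gave 0.00649% called and 4.72% under that unadjusted p.

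For some members the libraries of the groups did not overlap all the same. The share of all genes that separated in this way was not counted, here or in the other single comparisons. These separations are therefore described only. At day 23 all 3 early weaned libraries had more Gsta2 and Gsta5 than any control, with log2 differences of 0.92 and 1.06 (adjusted p = 0.902 and 0.836). Control replicate 1, at 17.5 FPKM of Gsta2, lay far under the other day 23 libraries. Gstp1 had a log2 difference of −0.49 (adjusted p = 0.784), with every early weaned library under every control. At day 63 the 5 members under the unadjusted threshold were Ephx1 with a log2 difference of −0.55, Gclm with 0.97, Gsta3 with −1.88, Gsta6 with −0.72, and Gpx2. Their adjusted p lay between 0.48 for Gpx2 and 0.768 for Ephx1. Without control replicate 2, which lacks Y-linked transcripts, the difference of Gsta3 was −0.84 and that of Gclm 0.74. Gclm was higher in all 3 early weaned libraries than in any control. Gsta3 was at 5.56, 3.97 and 6.7 FPKM in early weaned libraries against 13.8, 42.9 and 6.77 in controls, all below the controls. The nearest libraries of the 2 groups, at 6.7 and 6.77 FPKM, were almost equal. Gpx2 counts were 38, 16 and 32 in early weaned libraries against 0 in the controls, at least 2.61-fold over the floor.

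**Figure D4:**
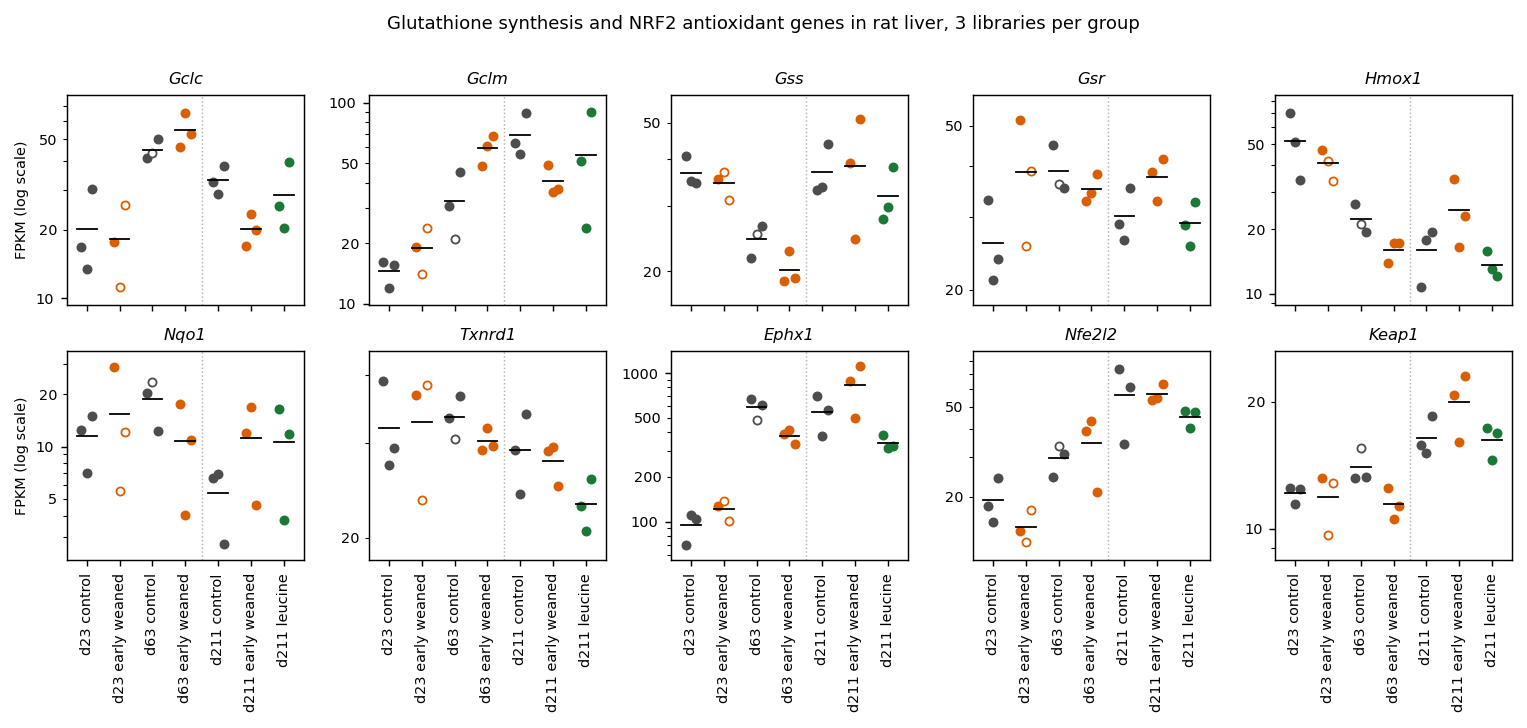
FPKM of 10 panel genes in each of the 21 libraries on log axes, by group. Points are libraries, open points are the 3 libraries without Y-linked transcripts and black bars are group means; among Wistar libraries Ephx1 is lowest and Hmox1 highest at day 23, and the Nqo1 libraries of a group scatter widely.

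At day 211 Gsta2 and Gsta5 were lower and Gstm3l higher in early weaned rats than in controls. By edgeR these were the members called among 34 tested, 1 higher and 2 lower, where 0.719% of all genes were called, 0.419% higher and 0.300% lower. Another 9 members had an unadjusted p under 0.05. With the called ones these were 12 of 34, against 17.3% of all genes. The median log2 change of the members was −0.17 against 0.02 over all genes. On log2(FPKM + 1) the median of all genes was shifted by 0.17 here and by −0.14 between leucine and early weaned rats, and by −0.12 with age in early weaned rats, against −0.02 to 0.02 by edgeR, so FPKM values of these groups should be read against those shifts. With limma on that scale 269 of 328 genes called at day 211 were higher in early weaned rats, against 63 of 108 by edgeR.

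Gsta2 read 464, 569 and 786 FPKM in the 3 controls and 235, 309 and 275 in the early weaned libraries, means of 606 ± 164 and 273 ± 36.7 (SD, n = 3). Every early weaned library lay below every control (log2 change −1.36, SE 0.22, adjusted p = 0.0397). Gsta5 read 691, 825 and 1029 FPKM in controls and 384, 509 and 396 in early weaned libraries, means of 848 ± 171 and 429.7 ± 69 (SD, n = 3), again without overlap (log2 change −1.18, SE 0.20, adjusted p = 0.0405). Gstm3l (ENSRNOG00000019058, chromosome 2, 210761729 to 210766501, minus strand) had 3.18, 1.32 and 1.46 FPKM in controls and 93.2, 6.82 and 128 in early weaned libraries (log2 change 5.01, SE 0.91, adjusted p = 0.0481). Its early weaned replicate 2 was far below the other replicates and above all controls, and leaving that library out gave 4 called members, at 3.45% of all genes. None of the 3 was called when control replicate 2 or 3 or early weaned replicate 1 or 3 was left out, or when only the compared groups were fitted. DESeq2 called 6 members and 7.47% of all genes.

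Of the other mu rows, Gstm1, Gstm4 and Gstm7 had positive log2 changes in early weaned rats without passing, while the libraries of Gstm5 and Gstm6 overlapped between the groups. Gstm1 was at 1189.6, 1072 and 1197 FPKM in controls and 1814, 1297 and 2496 in early weaned libraries (log2 change 0.47, adjusted p = 0.251). Gstm4 read 19.7, 22.8 and 22.6 FPKM in controls and 35.8, 23.3 and 43.3 in early weaned libraries (log2 change 0.42, adjusted p = 0.276), and Gstm7 had a log2 change of 0.38 (adjusted p = 0.139). For Gstm1, Gstm4 and Gstm7 the groups did not overlap on the FPKM scale. On log2(FPKM + 1) the median of all genes was itself higher in early weaned rats by 0.17. For Gstm4 the lowest early weaned value, 23.3 FPKM, lay just above the highest control, 22.8, so its separation is not firm. Gstm7 spans Gstm3l, so reads of the second could be counted in the first.

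Members of the other classes that had an unadjusted p under 0.05 were lower. Mgst1 stood at 2049.9, 2052 and 2088 FPKM in controls and 1583, 1809.6 and 1496 in early weaned libraries (log2 change −0.55, adjusted p = 0.0899). Gclc read 32.5, 28.6 and 38.1 FPKM in controls and 17, 23.4 and 19.9 in early weaned libraries (log2 change −0.92, adjusted p = 0.11). Gclm read 63.4, 55.7 and 89.5 FPKM in controls and 48.9, 36.1 and 37.5 in early weaned libraries (log2 change −0.98, adjusted p = 0.244). Both ligase subunits were lower in every early weaned library than in any control. Gsto1, an enzyme that reduces oxidized thiols and methylated arsenic, held 83.3, 95.6 and 119 FPKM in controls and 78.6, 91.2 and 73.9 in early weaned libraries (log2 change −0.50, adjusted p = 0.215). Gsta4 held 113, 131 and 150.1 FPKM in controls and 123, 109 and 109.5 in early weaned libraries (log2 change −0.42, adjusted p = 0.145), and Gsta1 594, 579 and 532 FPKM in controls and 544, 448 and 623 in early weaned libraries (log2 change −0.30, adjusted p = 0.248). The libraries of both alpha genes overlapped between the groups on the FPKM scale.

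With leucine, Gsta2 and Gsta5 were higher than in early weaned rats without it, and edgeR called no member lower. The 2 calls stand among 34 tested members, where 0.360% of all genes were called, 0.180% higher. Counting both, 14 members had an unadjusted p under 0.05, against 13.1% of all genes. With limma on log2(FPKM + 1), 41 of 136 genes called were higher, against 27 of 54 by edgeR. This comparison shares its early weaned libraries with the one above, so the values of the 2 comparisons are not independent. Gsta2 was at 727, 639 and 737 FPKM with leucine (log2 change 1.51, SE 0.22, adjusted p = 0.0344), and Gsta5 at 1049.5, 1059 and 1091 (log2 change 1.46, SE 0.20, adjusted p = 0.0294). The leucine means were 701 ± 53.9 FPKM for Gsta2 and 1067 ± 21.6 for Gsta5 (SD, n = 3). All 3 leucine libraries lay above all early weaned libraries for both genes. Both calls were lost when early weaned replicate 1 or 3 or any 1 leucine library was left out, while leaving out early weaned replicate 2 gave 7 called members, at 3.48% of all genes. DESeq2 called 7 members and 5.27% of all genes. Ephx1, Gstm3l and Gstt3 were lower with leucine by DESeq2, and Gstm3l also by edgeR without the filter or with counts divided by 4.

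Among members that did not pass, Gstm3l read 1.21, 1.69 and 2.79 FPKM with leucine, all below the early weaned libraries (log2 change −5.10, adjusted p = 0.0547). Ephx1 read 702, 379 and 563 FPKM in controls, 879, 497 and 1118 in early weaned and 381, 312 and 321 with leucine (log2 change with leucine −1.12, adjusted p = 0.0924). The leucine libraries were below every early weaned library. Mgst1 was at 2011, 2018 and 1978 FPKM with leucine (log2 change 0.45, adjusted p = 0.183), Gstm1 at 1140.1, 959.9 and 1170.2 (log2 change −0.61, adjusted p = 0.197) and Gstz1 at 245, 288 and 262 against 187, 230.4 and 156 (log2 change 0.61, adjusted p = 0.179). Gclc was at 25.4, 20.4 and 39.8 FPKM and Gclm at 51.4, 23.7 and 89.98 with leucine, and leucine replicate 3 was the highest for both. Hmox1 read 10.7, 17.9 and 19.5 FPKM in controls, 34.3, 16.6 and 23 in early weaned and 15.8, 13 and 12.1 with leucine (log2 change with leucine −0.68, adjusted p = 0.338).

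Gstt3, a theta class row, was lower in every leucine library than in any early weaned library. Controls read 39.8, 77.6 and 180.3 FPKM, early weaned libraries 125, 141 and 119.6 and leucine libraries 33.9, 29 and 43.6. Its log2 changes with leucine were −1.70 against early weaned rats and −1.54 against controls (adjusted p = 0.128 and 0.369). The control libraries spread widely and covered the early weaned range.

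**Figure D5:**
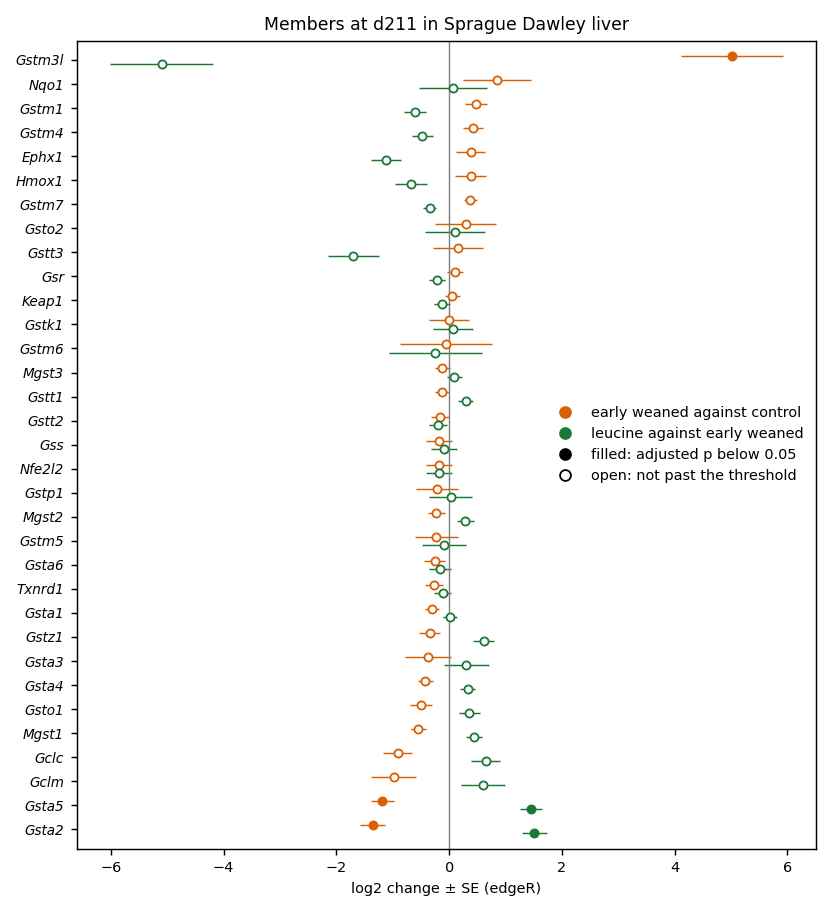
Log2 change at day 211 (horizontal axis, edgeR, bars of 1 SE) of 33 tested members, one per line, for early weaned rats against controls (orange) and leucine against early weaned rats (green), with filled points past an adjusted p of 0.05 and Gpx2 left out. Gsta2 and Gsta5 lie below 0 in the first comparison and above 0 in the second, and Gstm3l the other way, with the early weaned libraries in both.

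Against controls, leucine-supplemented rats had 0 called members by edgeR and 1, Gstt3, by DESeq2, and 5 had an unadjusted p under 0.05. Over all genes 0.0133% were called and 10.8% had an unadjusted p under 0.05. Gsta2 differed by a log2 of 0.15 and Gsta5 by 0.27 (SE 0.21 and 0.20, adjusted p = 0.85 and 0.651). The members under the unadjusted threshold were Ephx1, Txnrd1, Gsta1, Gstt2 and Gstt3, all lower with leucine. Their log2 differences were −0.74, −0.38, −0.29, −0.36 and −1.54.

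Other panel genes had no call in any day 211 comparison. Nfe2l2 read 73.8, 34.1 and 61 FPKM in controls, 53.6, 54.7 and 63 in early weaned and 47.7, 40.3 and 47.6 in leucine libraries, and its sensor Keap1 15.8, 15.1 and 18.4 FPKM in controls, 20.8, 16.1 and 23 in early weaned and 17.3, 14.5 and 16.9 in leucine libraries. Glutathione reductase, Gsr, held 29, 26.4 and 35.4 FPKM in controls, 38.7, 32.8 and 41.5 in early weaned and 28.8, 25.6 and 32.6 in leucine libraries. For each of these genes early weaned libraries overlapped the controls. Txnrd1 stood at 29.1, 24.1 and 33.9 FPKM in controls, 29, 29.4 and 24.9 in early weaned and 22.9, 20.6 and 25.7 in leucine libraries. Nqo1 read 6.6, 6.94 and 2.72 FPKM in controls, 11.9, 16.8 and 4.6 in early weaned and 16.4, 3.79 and 11.8 in leucine libraries, and Gss 33, 33.7 and 43.9 FPKM in controls, 38.9, 24.4 and 51.3 in early weaned and 27.5, 29.6 and 38.1 in leucine libraries. All 3 groups overlapped for Nqo1 and Gss.

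Transferases without a call at day 211 included Gstk1, at 56.8, 113 and 114 FPKM in controls, 130.3, 108 and 93.5 in early weaned and 63.1, 157 and 92.1 in leucine libraries. Gstp1 read 10.9, 35.1 and 31.6 FPKM in controls, 29.3, 19.4 and 30.7 in early weaned and 24, 21.1 and 26.7 in leucine libraries, with control replicate 1 the lowest. Gstt1 held 48.6, 39.3 and 42.8 FPKM in controls, 51.4, 36.7 and 51 in early weaned and 51.1, 46.9 and 53.8 in leucine libraries. Gstt2 held 122, 92.1 and 115 FPKM in controls, 108, 115 and 115 in early weaned and 96.1, 70.5 and 98 in leucine libraries. For each of these genes controls and early weaned rats overlapped at day 211. Mgst3, Gsta3 and Gsta6 were not called there either.

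Wider lists of the same pathway were counted with the same fit, and are read against the 17.6% of all genes called with age in controls and 27.0% in early weaned rats. Of 30 tested NRF2 targets that are not members, 10 were higher and 1 lower at day 63 than at day 23 in controls, with a median log2 change of 0.37. In early weaned rats 7 were higher and 2 lower, with a median of 0.31. The aflatoxin aldehyde reductase Akr7a3 rose by 3.45 on the log2 scale in controls and also rose in early weaned rats (2.996). Catalase, Cat, rose by 1.75 and 2.17, the peroxidase Prdx1 by 1.02 and 1.01, and Ugdh, which supplies glucuronic acid, by 1.86 and 1.43. The conjugate exporter Abcc3 had log2 changes of −3.54 and −6.12, both called.

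Genes of glutathione supply moved in both directions with age. Of 24 tested, 3 were higher and 3 lower in controls, and 5 higher and 4 lower in early weaned rats. Gpx1, the main cytosolic glutathione peroxidase, had log2 changes of 1.50 and 1.86. The glutathione-degrading Chac1 had −7.16 and −8.87, the extracellular glutathione hydrolase Ggt1 −2.89 and −3.29, and Cbs, the entry enzyme of cysteine synthesis, −1.11 and −1.34, all called. Of 14 partners and repressors of NRF2, 0 were higher and 2 lower in controls, Maff (−5.45) and Bach2 (−2.94). In early weaned rats 0 were higher and 5 lower: Maff, Mafk, Bach1, Bach2 and Nfe2l1. Both lists are described by their counts only.

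At day 211 none of these 3 lists had a called gene in any comparison, nor had they at day 23 or day 63 between weaning groups. Of the 24 glutathione supply genes, 16 were lower in early weaned rats than in controls, with a median log2 change of −0.28 against 0.02 over all genes. The NRF2 targets beyond the members split into 18 higher and 12 lower there. Of 17 tested receptors and targets of the drug-sensing pathways CAR, PXR and AhR, 1 was called, the drug-metabolizing Cyp2b2, with a log2 change of −3.22 (adjusted p = 0.0438).

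Values of other gene groups also differed between the day 211 libraries. Of 17 genes of the clock and its output 13 were lower in early weaned rats than in controls, with Hlf, Clock and Tef called lower and Npas2 called higher. Their summed level was 264, 232 and 332 FPKM in controls, 111, 121 and 167 in early weaned and 268, 241 and 392 in leucine libraries. In leucine against early weaned rats 13 were higher, 3 of them called, and 4 lower. Clock read 2.56, 2.55 and 2.22 FPKM in controls and still 0.459, 0.469 and 0.265 with leucine. The summed level of 6 cholangiocyte markers was 13.5, 8.26 and 11.5 FPKM in controls, 27.1, 16.1 and 30.6 in early weaned and 10.1, 15.5 and 13.2 in leucine libraries, and all 6 had positive log2 changes in early weaned rats, none called. By the fit, leucine against early weaned rats had 2 of these markers higher and 4 lower (median log2 change −0.04), and leucine against controls had 6 of 6 higher (median 0.57), none called. The 8 pericentral hepatocyte markers summed to 1167, 1892 and 2725 FPKM in controls, 1388, 954 and 1177 in early weaned and 1315, 1412 and 2213 in leucine libraries, with 7 lower in early weaned rats and none called. In leucine against early weaned rats 8 of 8 were higher, none called. All 13 mitochondrially encoded genes were lower in early weaned rats, none called, with a median log2 change of −0.51, and all 13 were higher in leucine against early weaned rats, none called (median 0.25). Of 7 periportal markers, 3 were higher and 4 lower in early weaned rats, 1 called lower. In leucine against early weaned rats 5 were higher, 1 of them called, and 2 lower. The other cell type lists had no call. Counts higher and lower in these 2 comparisons were 1 and 7, then 5 and 3 for hepatocyte markers. For red blood cell markers they were 5 and 0, then 4 and 1. Kupffer cell markers had 4 and 3, then 7 and 0, and endothelial markers 2 and 3, then 5 and 0. In bulk liver, fewer cells of a type and less RNA per cell cannot be told apart. The part of these groups in the values of Gsta2, Gsta5 and Gstm3l was not tested.

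Markers of other cell types and zones were counted with age as well, against 17.6% of all genes called in controls and 27.0% in early weaned rats. In lists this short, 1 or 2 calls are not read as a change of a cell type. In controls lymphocyte markers were higher for 5 of 5 genes, 2 of them called, with a median log2 change of 3.20, and in early weaned rats for 4 of 5, none called. These 5 genes together summed to only 0.51 to 1.27 FPKM per library in day 23 controls and 2.45 to 6.02 in day 63 controls. The size of that change is therefore poorly known. Pericentral hepatocyte markers had 0 called higher and 3 lower of 8 in controls, and 1 higher and 4 lower in early weaned rats. Periportal markers had 1 higher and 3 lower of 7 in controls, and 1 higher and 4 lower in early weaned rats. All 13 mitochondrially encoded genes were lower in controls, 4 of them called, and 10 of 13 in early weaned rats, 2 called. Cholangiocyte markers were lower for 6 of 6 genes in controls and 5 of 6 in early weaned rats, with 1 and 0 called, and Krt7, which marks bile duct cells, was at 0 in all 3 early weaned libraries of day 63. Stellate cell markers had 2 of 6 called lower in each group, endothelial markers 1 and 2 of 5, and Kupffer cell markers 1 of 7 in each group. Red blood cell markers had no call, with 4 of 5 lower in controls and 5 of 5 in early weaned rats. Of 8 hepatocyte markers, 1 was called higher and 1 lower in controls, and 4 higher and 1 lower in early weaned rats. Their part in the age values of the members was not tested.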

How the data were processed

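RNA-seq of rat liver was deposited as 2 tables, one with the 12 Wistar and one with the 9 Sprague-Dawley libraries, each with counts and FPKM per gene and library. Per the labels' protocols, total RNA was purified on a column kit and made into libraries with a SMARTer mRNA-seq kit. No aligner or counting tool is named in the labels or tables, and the submitters' processing notes name mouse builds only, while the tables carry rat gene identifiers. The deposited estimated counts are whole numbers whose low values pile up at multiples of 4, so 4 units were taken as about 1 fragment, and a floor of 3 fragments is 12 units. The FPKM values are the authors' own, and their depth is that of the counts. Intervals and floors cover counting error only.

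The tables were fitted separately, on the counts, with edgeR 4.0.16 in R 4.3.3: TMM scaling, filterByExpr at a minimum count of 10, 1 mean per group over all groups of a table, two-sided quasi-likelihood tests and Benjamini-Hochberg adjustment over all genes tested, called at an adjusted p under 0.05. Log2 changes and SEs come from this fit and levels are FPKM. Libraries were grouped by their labels. No replicates held nearly equal counts (0.320 to 1.00% of genes equal). The script was tested on simulated data. Alternatives were RLE scaling, DESeq2 1.42.0, no filter, counts divided by 4, limma 3.58.1 on log2(FPKM + 1) and log2(FPKM + 0.1), the compared groups alone, each library left out, and a replicate block. Leaving out the libraries that stood apart and summing Gsta2 and Gsta5 were chosen after seeing the data. The members, wider lists and tests were chosen with earlier results of these data known. Per-library values are given for called members and a fixed panel, other members are given by range and counts, and from the wider lists called genes are named.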

Additional observations from a re-analysis of the deposited data

Results flagged for a closer look

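In 3 members the difference between early weaned and control rats had opposite signs at 2 ages, with every early weaned library on one side of every control at each age. Gsta2 had a log2 difference of 0.92 at day 23 and −1.36 at day 211. Gsta5 had 1.06 at day 23 and −1.18 at day 211. Gclm had 0.97 at day 63 and −0.98 at day 211. Of 14635 genes tested in both tables, 0.977% separated in opposite directions at day 23 and day 211 in this way (2 of 34 members, 5.88%) and 4.19% at day 63 and day 211 (1 of 34, 2.94%). The 2 members are Gsta2 and Gsta5, close relatives whose reads could be split between rows. They cannot be read as 2 independent cases. The differences between ages were not tested, since the day 211 libraries differ from the others in strain and table as well as age. The Wistar weaning groups were also unequal in Y-linked transcripts. Early weaned replicates 2 and 3 at day 23 and control replicate 2 at day 63 lacked them, and no day 211 library did. Control replicate 2 also had the lowest Gclm of the day 63 controls, 21 FPKM. By edgeR only the day 211 values of Gsta2 and Gsta5 passed the threshold.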

How the results depend on the processing

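Counts of called members depended on the libraries and the tool. By edgeR the controls had 14 members called with age, 1 (of 281 genes called in all) when only the compared groups were fitted, 6 to 17 when 1 library was left out, 6 without the libraries that lack Y-linked transcripts, and 18 without those and control replicate 3 of day 23. The lower counts came without control replicates 1 or 2 of day 23 (6 and 7, at 4.08% and 4.70% of all genes) and control replicates 1 or 3 of day 63 (7 and 8, at 5.42% and 6.02%). The 17 came without control replicate 3 of day 23, at 37.9% of all genes. With all libraries 17.6% of all genes were called, and 1.92% when only the compared groups were fitted. The member counts thus moved along with the count over all genes. Early weaned rats had 15, with 11 to 14 when 1 library was left out and 3 without the libraries lacking Y-linked transcripts. With 1 library left out, 12.1% to 18.9% of all genes were called with age in early weaned rats, against 27.0% with all libraries. At day 211 early weaning had 3 (0.719% of all genes), against 6 by DESeq2 (7.47%) and 0 with the compared groups alone (0.213%). It had 0 to 4 when 1 library was left out (0.0130% to 3.45%). Leucine against early weaned rats had 2 (0.360% of all genes), against 7 by DESeq2 (5.27%) and 0 to 7 when 1 library was left out (0.00649% to 3.48%). DESeq2 called 1 where edgeR called 0 at day 63, in the change of the weaning difference with age, and in leucine against controls. It called 0.610%, 0.298% and 1.33% of all genes there. Over all genes, DESeq2 called 1122 at day 211 for early weaning and 791 for leucine against early weaned rats, where edgeR called 108 and 54. Over the members' named log2 changes, 1183 values kept their side of the threshold, 47 newly passed, 125 no longer passed and 7 reversed; genes of the wider lists were not run. All 7 reversals were of small changes that were not called. The 125 were all of changes called in the main fit, while most of the pooled values were of changes not called there. The pooled 1183 therefore does not show how stable the calls were. With 1 library left out, the age change of Gsta4 in controls ran from −0.076 (without control replicate 1 of day 23) to 0.30. That of Gstm1 ran from −0.14 (without control replicate 3 of day 23) to 0.50 in controls, with −0.0017 without control replicate 1 of day 63. The early weaned range ran from −0.20 (without replicate 3 of day 23) to 0.43, and was −0.47 without the libraries lacking Y-linked transcripts, with or without control replicate 3 of day 23. Gsta2 in leucine against controls ran from −0.030 (without control replicate 1) to 0.38. The cause was not tested.

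With replicate number as a block, early weaning at day 211 had 0 members called (0.326% of all genes) and leucine against early weaned rats 2 (0.386%). The age comparisons had 14 each, at 14.0% of all genes in controls and 24.5% in early weaned rats. Libraries of the same number showed little shared deviation (r −0.19 to 0.20 in Wistar pairs, −0.11 to 0.24 in Sprague-Dawley pairs). Pairs of different numbers ran from −0.25 to 0.15 and from −0.20 to 0.23. With 3 libraries a group these values cannot exclude a pairing, and the labels name none. Gsta2 and Gsta5 summed into 1 row gave log2 changes of 3.20 and 2.49 with age in controls and early weaned rats, −1.24 for early weaning at day 211 and 1.47 for leucine against early weaned rats. Merging near-identical copies by protein identity was not run. In leave-one-out fits and without the libraries lacking Y-linked transcripts, a lone library was assumed to vary like the other groups. Gpx2 and Gsto2 had few fragments, so the sizes of their differences are poorly known at this depth.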
